A study of Mus musculus with 9 samples.

Results

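Primary granule genes encode the contents of the granules that neutrophil precursors fill at the promyelocyte stage, together with the factors that switch that program on. The set described here was Mpo, Elane, Ctsg, Prtn3, Ms4a3, Cebpe and Gfi1, 7 genes in all. They were chosen by their E with WT signals in part: earlier results of that contrast on these arrays, in which Mpo and Ctsg were lower in E and late granule genes higher, were known when the list was drawn up. Of these, 6 were measured by the array, each by 1 probe set with a single gene symbol, so the choice of a main probe set by its mean over the 9 arrays never arose. Cebpe is not analysed here. The 6 genes stand among 18194 represented genes, of which the brighter 9097 entered the test, all 6 among them.

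The arrays hold total RNA of bone marrow cells from FVB/NJ mice that lacked the surface markers CD45.1 (leukocytes) and Ter119 (erythroid cells), labelled as stromal cells. There were 3 arrays of wild-type mice (WT). Another 3 came from leukemic mice whose marrow held 1 to 5% leukemic cells, the early phase (E), and 3 from the medium phase (M), with 5 to 50%. All groups share the strain and the sort. The leukemia's driver and the age of the mice are not given in the sources used here, and whether each array is 1 mouse or a pool is not stated. The labels call the arrays of a group biological replicates. Values are log2 MAS5 signals, one array each, and the number of arrays limits the precision.

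Granulocytes mature from blood stem cells through myeloblasts and promyelocytes. Promyelocytes make the azurophil, or primary, granules and load them with myeloperoxidase and a family of serine proteases. As the cells mature further, transcription of these genes is shut off and that of the secondary and tertiary granule genes begins. PU.1, C/EBP factors and MYB are the textbook activators of the primary granule genes, and GFI1 steers progenitors towards neutrophils. High signals of the set in marrow RNA therefore mark early granulocytic cells, among other progenitors.

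To show what lies before the genes of the granule enzymes, the 250 bases before the RefSeq start (GRCm38.p6) of these 4 genes are printed 5′ to 3′ on the strand of the gene. Capitals mark matches on either strand to GAGGAA, a core bound by PU.1, and to TAACNG or CAACNG, a core bound by MYB. The windows lie at chr11:87793534-87793783 (plus strand) for Mpo, chr10:79886062-79886311 (plus) for Elane, chr10:79879417-79879666 (plus) for Prtn3 and chr14:56102575-56102824 (minus) for Ctsg.
Mpo: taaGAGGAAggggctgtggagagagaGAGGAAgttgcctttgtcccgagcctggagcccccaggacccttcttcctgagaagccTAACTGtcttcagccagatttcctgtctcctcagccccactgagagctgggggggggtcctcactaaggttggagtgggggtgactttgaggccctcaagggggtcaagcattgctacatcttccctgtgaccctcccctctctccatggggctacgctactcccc
Elane: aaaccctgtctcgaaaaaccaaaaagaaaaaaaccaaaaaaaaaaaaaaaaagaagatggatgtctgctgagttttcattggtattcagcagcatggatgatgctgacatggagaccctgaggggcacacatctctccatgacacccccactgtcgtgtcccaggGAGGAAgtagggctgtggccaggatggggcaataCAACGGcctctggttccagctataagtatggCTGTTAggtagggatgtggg
Prtn3: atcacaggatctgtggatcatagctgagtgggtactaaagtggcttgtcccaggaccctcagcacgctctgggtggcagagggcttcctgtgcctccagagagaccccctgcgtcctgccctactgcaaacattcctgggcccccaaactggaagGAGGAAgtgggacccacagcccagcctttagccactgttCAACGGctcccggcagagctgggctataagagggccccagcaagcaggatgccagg
Ctsg: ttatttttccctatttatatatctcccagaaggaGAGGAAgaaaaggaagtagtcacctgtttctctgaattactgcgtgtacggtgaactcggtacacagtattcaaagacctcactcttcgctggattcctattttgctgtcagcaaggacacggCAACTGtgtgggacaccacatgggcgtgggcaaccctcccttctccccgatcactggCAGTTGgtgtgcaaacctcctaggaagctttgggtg
Each of the 4 windows held at least 1 match of both kinds, and no match overlapped another. Of 32851 windows of the same length before gene starts, 23.3% held GAGGAA, 43.1% held a MYB core and 9.68% held both. Prtn3 and Elane are adjacent protein-coding genes on chromosome 10, and their windows were alike in layout, with the GAGGAA match starting at -95 and -85 and a CAACGG match at -56 and -51 relative to the start. In Ctsg the GAGGAA match lay farther out, at -216, and in Mpo the 2 such matches lay at -247 and -224. The window of Ms4a3 and both windows of Gfi1 held neither core. One further core was searched for C/EBP (TTGCNNAA, in 9.56% of all windows) and one for GFI1 (AAATCA, in 12.4%). Gfi1 had 1 C/EBP match in 1 of its windows, and the set had no other match to these. A match is a run of letters and was not tested as a binding site.

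The set was above its WT signals in M and near them or below them in E. In M, all 6 measured genes were called higher than in WT, by 1.13 to 3.16 on the log2 scale, with a median of 2.60 beside a median of -0.19 over all genes tested. Of all genes tested, 25.3% were called higher and 43.5% lower in M with WT. In M with E, 6 of 6 were called higher as well, by 1.32 to 3.31, where 26.1% of all genes were called higher. For each of the 6, all M arrays lay above all WT and all E arrays, which held for 26.5% of all genes against WT and 27.2% against E. Gfi1, which passed the brightness filter only through M, had to be higher there, so these counts and medians are a description. Each M contrast shares its WT or E arrays with the contrast behind the choice of genes. In bulk RNA, a change in the number of cells of a type and one in the RNA per cell cannot be told apart.

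**Figure D1:**
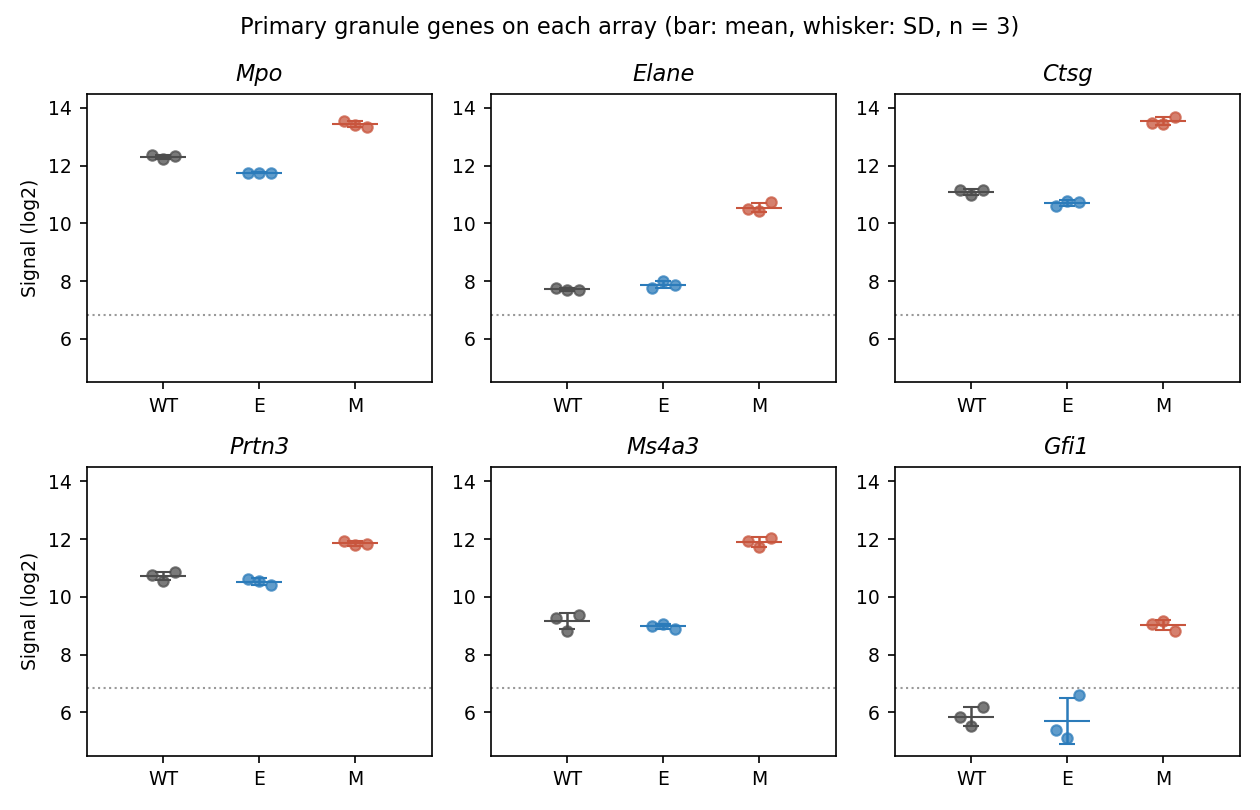
Signal of the 6 measured primary granule genes on each of the 9 arrays (points, log2), with the mean and SD of each group (WT, E and M, n = 3). The dotted line is the brightness threshold of 6.83. The M points lie above all others in every panel, and Gfi1 lies under the threshold in WT and E.

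Mpo encodes myeloperoxidase, which makes hypochlorous acid from hydrogen peroxide and is the most abundant enzyme of primary granules. It read 12.36, 12.23 and 12.33 in the WT arrays, 11.74, 11.76 and 11.76 in E, and 13.54, 13.42 and 13.34 in M. The 3 groups did not overlap, with E lowest and M highest. The rise from WT to M was 2.19-fold (log2 1.13 ± 0.07 SE, adjusted p = 1.09e-07), and that from E to M was 3.20-fold (1.68 ± 0.07 SE), the latter given with no p because the low E signals were known when the genes were chosen.

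Ctsg encodes cathepsin G, a serine protease of chymotrypsin-like type. Its signals were 11.16, 10.98 and 11.14 in WT, 10.59, 10.77 and 10.73 in E, and 13.49, 13.44 and 13.70 in M. As for Mpo, all E arrays lay below and all M arrays above the WT arrays. It rose 5.45-fold from WT to M (log2 2.45 ± 0.09 SE, adjusted p = 3.62e-09) and 7.19-fold from E to M (2.85 ± 0.09 SE), again with no p for the latter.

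Elane encodes neutrophil elastase, the protease whose mutations cause severe congenital and cyclic neutropenia in people. It read 7.77, 7.69 and 7.68 in WT, 7.76, 7.99 and 7.88 in E, and 10.48, 10.42 and 10.74 in M. The WT and E arrays overlapped, and the M arrays lay far above both. The rise was 7.15-fold from WT (log2 2.84 ± 0.12 SE, adjusted p = 8.42e-09) and 6.37-fold from E (2.67 ± 0.12 SE). The latter has no p, since E with WT results were known when the set was chosen.

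Prtn3 encodes proteinase 3, a close relative of elastase and the autoantigen of a form of vasculitis. Signals were 10.75, 10.56 and 10.85 in WT, 10.63, 10.54 and 10.41 in E, and 11.94, 11.80 and 11.82 in M. WT and E overlapped, and M stood above them. The gene rose 2.19-fold from WT to M (log2 1.13 ± 0.09 SE, adjusted p = 1.42e-06) and 2.50-fold from E to M (1.32 ± 0.09 SE), with no p for the latter, as for Elane. Although Prtn3 and Elane lie side by side, their differences from WT in M were 1.13 and 2.84.

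Ms4a3 encodes a four-pass membrane protein of granulocyte and monocyte progenitors. It read 9.26, 8.83 and 9.37 in WT, 8.99, 9.06 and 8.89 in E, and 11.93, 11.73 and 12.05 in M. The WT and E arrays overlapped. The gene rose 6.73-fold from WT to M (log2 2.75 ± 0.14 SE, adjusted p = 2.91e-08) and 7.59-fold from E to M (2.92 ± 0.14 SE), with no p for the latter, as for Elane.

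Gfi1 encodes a zinc finger repressor needed for neutrophil development. Its signals were 5.86, 5.52 and 6.19 in WT, 5.38, 5.13 and 6.62 in E, and 9.05, 9.17 and 8.83 in M. In WT and E these lay near the median of all probe sets (5.64 and 5.50), under the brightness threshold of 6.83, so Gfi1 entered the test only through its M signals. Its M minus WT difference of 3.16 ± 0.35 (log2, SE) and M minus E difference of 3.31 ± 0.35 are therefore a description, taken over dim signals, and no p is given. Its SE was the widest of the set, and 1 of its E arrays (6.62) lay above all WT arrays.

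The size of the rise in M depended on how the arrays were scaled. The 12 spike-in probe sets, control RNAs added before labelling, averaged (log2, SD, n = 3) 8.86 ± 0.16 in WT, 8.80 ± 0.13 in E and 9.85 ± 0.30 in M. After scaling each array to its spike-ins, the median of all genes in M with WT moved from -0.19 to -1.18, the rise of Mpo came to 0.13 (adjusted p = 0.526) and that of Prtn3 to 0.14 (adjusted p = 0.546). Elane (1.84, adjusted p = 9.43e-14), Ctsg (1.45, adjusted p = 3.28e-11) and Ms4a3 (1.76, adjusted p = 3.14e-14) kept their calls. The SE of Elane was 0.24 under this scaling and 0.12 as deposited, yet its adjusted p was smaller. An array's spike-in offset is shared by all its genes, and these p-values do not allow for its error. Their sizes are therefore not read. The difference of Gfi1 was 2.17. Against E, the difference of Mpo was 0.63 under that scaling, and Prtn3 lost its call (0.27). Relative to the median of all genes, which such scaling does not touch, Mpo stood 1.32 higher in M than in WT, Prtn3 1.32, Ctsg 2.63, Ms4a3 2.94, Elane 3.03 and Gfi1 3.35. The calls of all genes in M with WT were 36.8% higher as deposited, 16% higher with arrays centred on their median and 11.9% higher with spike-in scaling, and all 6 members were also called higher with median centring. Of all genes tested, 13.9% were called higher with median centring and 10.7% with spike-in scaling.

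**Figure D2:**
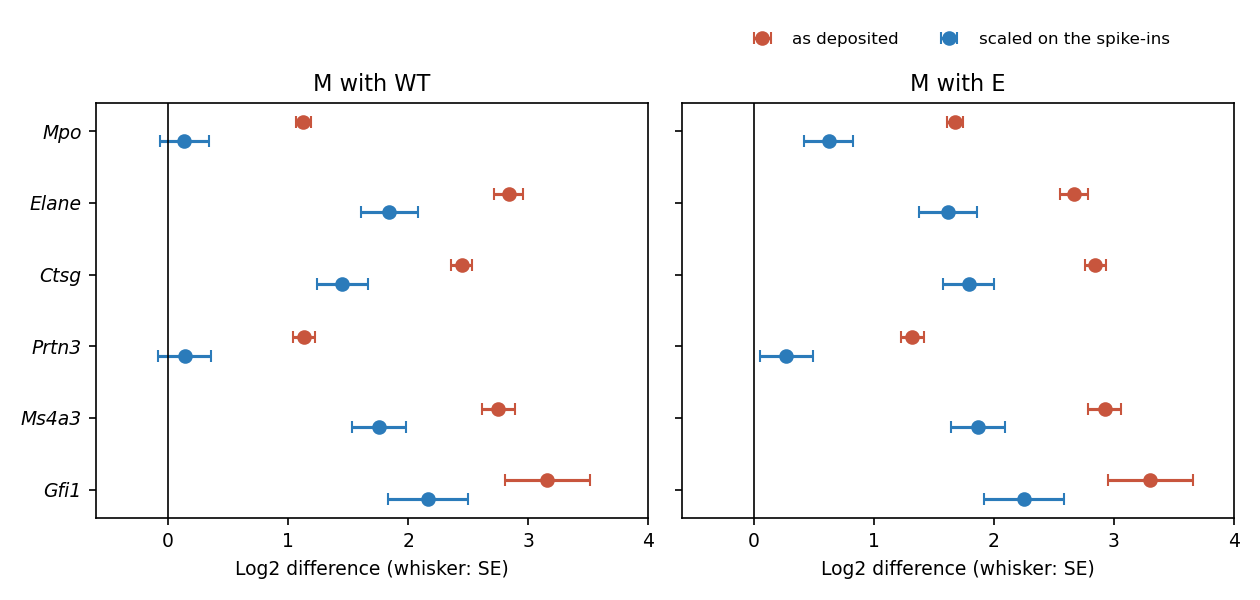
Log2 difference of each measured member in M with WT (left) and M with E (right), as deposited and after spike-in scaling (points, with SE from the model). With spike-in scaling, Mpo and Prtn3 lie within 0.14 of 0 in M with WT, and Elane, Ctsg, Ms4a3 and Gfi1 lie between 1.45 and 2.17.

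Among themselves, the members rose by unequal amounts. The signal of a gene relative to Mpo on the same array does not depend on the scaling of that array. Relative to Mpo, the WT to M change was 1.71 for Elane, 1.32 for Ctsg, 1.62 for Ms4a3 and 2.03 for Gfi1 (log2), with no overlap between the WT and M arrays in each of these 4. For Prtn3 the change was 0.00, and its log2 signal relative to Mpo was -1.58 ± 0.10 in WT and -1.58 ± 0.05 in M (SD, n = 3). In E with WT the signals relative to Mpo were higher by 0.72 for Elane, 0.15 for Ctsg, 0.36 for Prtn3 and 0.38 for Ms4a3, again with no overlap, and overlapped for Gfi1 (0.41). The E differences are a description. The E minus WT difference of Mpo lay at percentile 3.8 of all genes tested, so most genes are higher in E relative to Mpo. Its low E signals were known when the genes were chosen. In M with WT the difference of Mpo lay at percentile 86.8. The share of all genes without overlap relative to Mpo was not computed. Each M comparison without overlap has an exact permutation p of 0.10 (two-sided), which 3 arrays against 3 cannot go below, and an adjusted p of 0.115 over the 15 computed, so none can pass 0.05. The exact permutation p for Prtn3 in M with WT was 0.90.

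**Figure D3:**
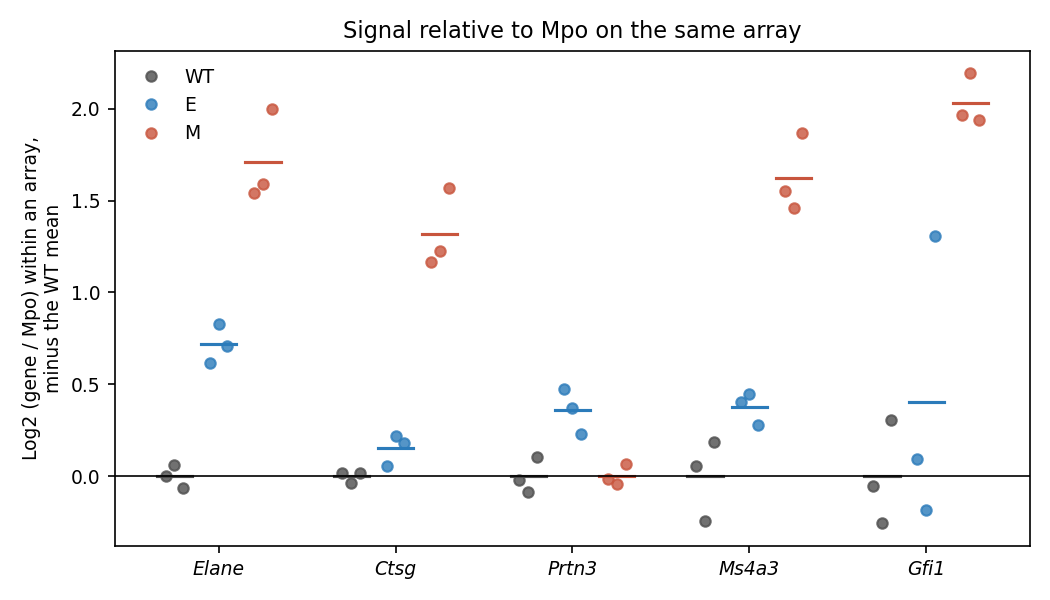
Log2 signal of 5 members relative to Mpo on the same array, minus the WT mean of that value (points are arrays, lines are group means). Elane, Ctsg, Ms4a3 and Gfi1 lie highest in M, while the M points of Prtn3 lie among its WT points.

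E with WT is given as a description for the members. E was lower than WT by 0.55 (SE 0.07) in Mpo and by 0.40 (SE 0.09) in Ctsg, where the arrays did not overlap, as in 14.7% of all genes in that direction. The E minus WT differences of Prtn3 (-0.19 ± 0.09 SE), Ms4a3 (-0.17 ± 0.14 SE), Gfi1 (-0.15 ± 0.35 SE) and Elane (0.17 ± 0.12 SE) came with overlapping arrays. By the rule of an adjusted p under 0.05, 2 of 6 members were lower and 0 higher, where 1.65% and 0.462% of all genes were. Nothing is read from this count. With spike-in scaling 0 of 6 were called, and Ctsg also lost its call when WT replicate 1, 2 or 3, E replicate 1, 2 or 3, or M replicate 1 was left out.

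Genes that process, pack or hold in check the granule enzymes were followed as a list of 18, of which 15 had a probe set and 14 were tested. In M with WT, 9 of the 14 rose, 1 fell and 4 did not pass, where 25.3% of all genes were called higher and 43.5% lower. The list's median was 1.13 beside -0.19 over all genes. Lyz2, lysozyme, rose 15-fold (log2 difference SE 0.23, adjusted p = 1.09e-07). Serpinb1a, an inhibitor of elastase and cathepsin G, rose 11.3-fold (log2 3.50 ± 0.16 SE, adjusted p = 1.60e-08). Ctsc, the dipeptidase that removes the propeptide of the granule serine proteases, rose from 8.67 ± 0.23 to 10.79 ± 0.20 (SD, n = 3, adjusted p = 9.57e-07), and Cst7, cystatin F, an inhibitor of that enzyme, from 7.49 ± 0.04 to 9.64 ± 0.14 (SD, n = 3, adjusted p = 2.06e-07). The gene that fell, the chaperone Canx, was picked out with its value known (-0.17, adjusted p = 0.0203). With spike-in scaling 6 rose, Lyz2, Serpinb1a, Cst7 and Ctsc among them, and 6 fell, Srgn among those, which had risen by 0.27 without that scaling. Of all genes, 10.7% were called higher and 7175 of 9097 lower under it. In E with WT, 0 of the 14 passed (median -0.07).

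Of 19 myeloid regulators and receptors, 13 were tested, and in M with WT 8 of 13 rose, 4 fell and 1 did not pass (median 1.73), beside the same 25.3% and 43.5% of all genes. Klf4, a factor of monocyte development, rose by 3.69 (adjusted p = 5.43e-09), and Ets1 by 3.44 (adjusted p = 2.11e-08). Cd34, a surface marker of progenitors and endothelium, rose by 2.86 (adjusted p = 5.16e-07), and Cebpd by 2.62 (adjusted p = 7.42e-09). The 4 that fell, named after their values were seen, were Irf8, a factor of monocytes and dendritic cells (-1.07, adjusted p = 0.00168), Gfi1b, the erythroid and megakaryocytic relative of Gfi1 (-0.76, adjusted p = 3.64e-05), Myb (-0.38, adjusted p = 0.00653) and Kit (-0.30, adjusted p = 0.0386). Gfi1 and Gfi1b thus lay on opposite sides of WT in M. Of the genes for the activators of the set, Cebpa and Spi1, which encodes PU.1, had mean signals under the brightness threshold and were not tested. Spi1 read 5.88 ± 0.39 in the WT arrays, 5.85 ± 0.12 in E and 6.87 ± 0.35 in M, and Cebpa 6.35 ± 0.18, 5.65 ± 0.68 and 7.97 ± 0.24 (SD, n = 3). In E with WT, 3 of the 13 fell and 0 rose, where 1.65% of all genes were called lower and 0.462% higher. The 3 were Csf1r (-0.88, adjusted p = 0.00219), Klf4 (-0.75, adjusted p = 0.0245) and Irf8 (-1.07, adjusted p = 0.0412), named here after their values were seen. Klf4 was not called in E with arrays centred on the median or with spike-in scaling, and Irf8 and Klf4 were not after quantile normalization. With spike-in scaling 7 rose and 5 fell in M with WT, the 4 named rises and the 4 named falls among them. Of all genes, 10.7% were called higher and 7175 of 9097 lower under it.

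Secondary and tertiary granule genes come on after the primary granule genes in the same lineage. Of 14 listed, 8 were tested, and in E with WT 6 rose and 0 fell (median 2.23), where the members' median was -0.18. Of all genes tested, 0.462% were called higher in E with WT. With median or spike-in scaling 8 of 8 rose, where 1.44% and 0.33% of all genes did. The lists were set apart with E with WT results known. Their contrast in E is therefore a description, and its hold under other scalings is no support. In M with WT 8 of 8 were called higher (median 5.79), where the members' median was 2.60 and 25.3% of all genes were called higher. Of the 8, Ltf, Lcn2, Olfm4 and Chil3 read under the brightness threshold in WT and entered the test through their higher groups, so these counts and medians are a description. Chil3, a chitinase-like protein, read 6.67 ± 0.11 in the WT arrays, 10.31 ± 0.08 in E and 14.74 ± 0.10 in M, and Olfm4, of specific granules, 4.28 ± 1.47, 6.50 ± 0.30 and 11.76 ± 0.63 (SD, n = 3). S100a9, over the brightness threshold in WT, read 8.16 ± 0.16 there, 10.66 ± 0.08 in E and 14.61 ± 0.29 in M (SD, n = 3). Of the 5 genes under the filter, 2 had a lower mean in E than in WT, at dim signals with a wide spread (SD, n = 3). Itgb2l read 5.78 ± 0.10, 4.61 ± 1.38 and 3.88 ± 1.40 in WT, E and M, and Cxcr2 3.77 ± 1.28, 2.61 ± 1.67 and 5.13 ± 0.98. Both contrasts share the WT arrays, so their values are set side by side only. The difference between the lists was not tested.

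**Figure D4:**
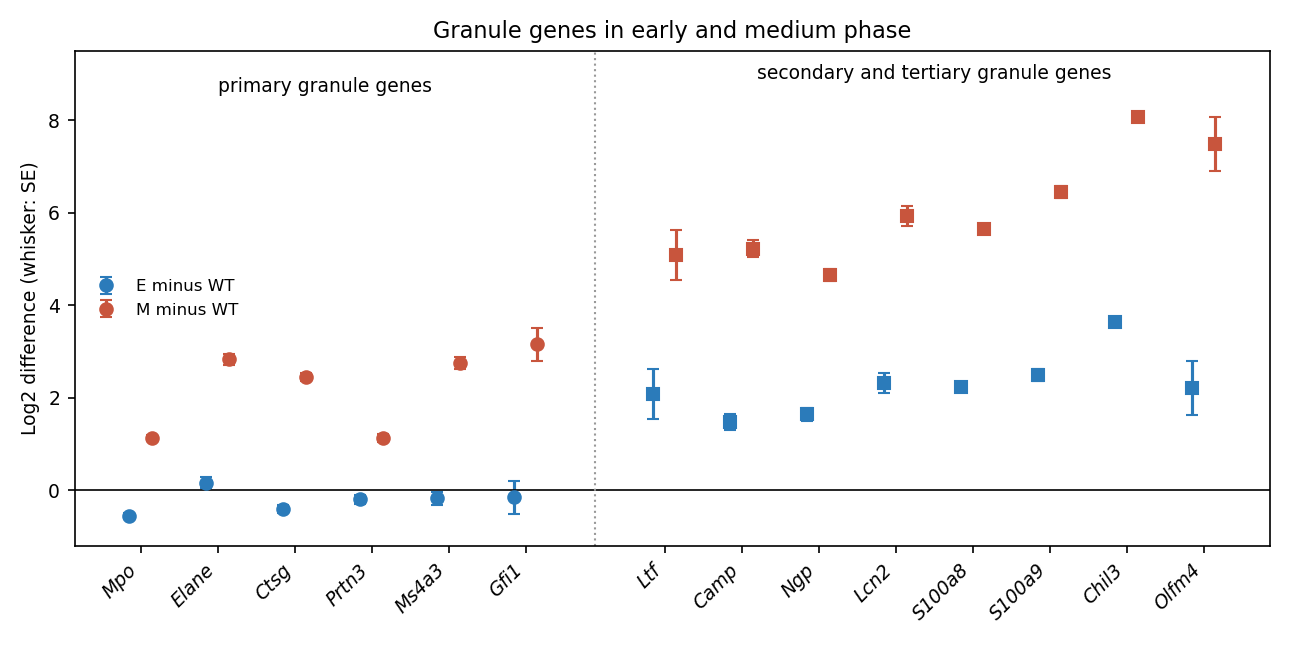
Log2 differences from WT in E and in M (points, with SE from the model) for the 6 measured primary granule genes (left) and the 8 tested secondary and tertiary granule genes (right). The primary granule genes lie between -0.55 and 0.17 in E and between 1.13 and 3.16 in M, and the 8 later granule genes lie above them in each phase. Of these 8, Ltf, Lcn2, Olfm4 and Chil3 were under the brightness threshold in WT. The lists were set apart with E with WT results known.

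Serine protease genes near the members were listed too. Ctsg lies between Mcpt8 and Gzme on chromosome 14, and Elane between Prtn3 and Cfd. Of the 15 listed genes, 11 had a probe set and 1 passed the brightness filter. This was Mcpt8, a basophil protease, which rose 9.62-fold from WT to M, from 7.75 ± 0.20 to 11.01 ± 0.59 (SD, n = 3, adjusted p = 1.25e-06), with 7.64 ± 0.31 in E. Gzme, on the other side of Ctsg, read (SD, n = 3) 2.58 ± 1.23 in WT, 2.70 ± 0.89 in E and 4.95 ± 0.50 in M, under the median of all probe sets in each group. Prss57 and Cfd are not analysed here.

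The genes whose profile over the 9 arrays lay closest to the mean profile of Mpo, Elane, Ctsg and Prtn3, each centred on its own mean, were no granule genes. They were Hmgcs1, an enzyme of cholesterol synthesis (root mean square difference 0.08, log2), Ier5 (0.08), Tmsb4x, which encodes an actin-binding peptide (0.10), Chst11 (0.10) and Fli1 (0.10). The 4 enzyme genes themselves lay 0.31 to 0.40 from their mean profile. Hmgcs1 read (SD, n = 3) 10.55 ± 0.07 in WT, 10.38 ± 0.10 in E and 12.47 ± 0.05 in M.

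Summed marker signals of several other cell types were higher in M too, while those of others were not. Summed over 6 genes, the linear signals of the set were 9023 to 10210 in WT, 7314 to 7527 in E and 30989 to 33657 in M. Markers of mesenchymal stroma, the labelled cells, summed to 4024 to 4551 in WT, 5124 to 5547 in E and 56957 to 69524 in M over 11 genes. Of their 10 tested genes, 10 rose in M with WT (median 4.18), where 25.3% of all genes were called higher. Whether each would pass the brightness filter without its M signals was not examined, so this count is a description. Of the 11, 1 (Ebf3) lay under the median of all probe sets in WT and in E. Late neutrophil markers (10 genes) summed to 1450 to 1572, 6049 to 7215 and 67082 to 84982, with 6 of 10 under that median in WT. Monocyte markers (6 genes) summed to 3507 to 3849, 2009 to 2073 and 13741 to 18163, but did not move together. Of their 4 tested genes, 2 rose in M with WT (Klf4 among them), 1 fell (Irf8) and 1 was not called. Of all genes, 25.3% were called higher and 43.5% lower. Without the brightness filter the median difference of the 6 was 0.10, beside 0.11 over all genes, and 1 of 6 lay under the median of all probe sets in M. Pan-leukocyte markers (8 genes) summed to 4411 to 4976, 3203 to 3497 and 7766 to 13067, with none under the median. Ptprc, which encodes CD45, read 9.76 ± 0.13, 9.59 ± 0.14 and 10.64 ± 0.48 (SD, n = 3) and rose by 0.87 from WT to M (adjusted p = 0.00192). With spike-in scaling 2 of 8 pan-leukocyte genes rose in M with WT and 2 fell, against 7 and 0 without it. Of all genes, 10.7% were called higher and 7175 of 9097 lower with that scaling. Markers of eosinophils, basophils and mast cells (8 genes) summed to 1096 to 1171, 2195 to 2502 and 4003 to 6045. Of the 8, 3 lay under the median of all probe sets in WT and in E, and 1 did in M. B lineage markers (6 genes) summed to 252 to 344, 522 to 606 and 1753 to 3541. Of the 6, 3 lay under the median of all probe sets in WT, and 2 (Cd79a and Pax5) did in M. Endothelial ones (5 genes) summed to 209 to 273, 179 to 225 and 951 to 1386. Of the 5, 4 lay under that median in WT, and 0 were tested. Megakaryocyte ones (4 genes) summed to 1006 to 1148, 1094 to 1276 and 1589 to 1865. Of the 4, 3 rose in M with WT and 1 (Gp9) fell, beside 25.3% and 43.5% of all genes. With spike-in scaling 0 rose and Gp9 fell, beside 10.7% of all genes higher and 7175 of 9097 lower. Erythroid markers (7 genes) overlapped between WT and M, with 46965 to 52574, 41288 to 43805 and 26083 to 57360. Cell cycle markers (7 genes) were lower in M, with 79403 to 85966, 75338 to 79306 and 48503 to 70396. The part of these cell types in the differences of the primary granule genes was not tested.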

How the data were processed

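Total RNA of the sorted cells was labelled by a 3′ amplification kit and hybridised to 9 one-colour Affymetrix arrays, per the labels' protocols. The authors deposited log2 signals. The submitters' processing notes name MAS5, whose version is not given in the sources used here. The linear mean, trimmed by 2% at either end, was 500.0 on every array, exact zeros numbered 249 to 754 of 45101 probe sets, and array medians were 5.43 to 6.28. Of the probe sets, 34958 carried 1 gene symbol, 932 several and 9211 were not listed in the array annotation, and symbols were updated through gene identifiers of RefSeq (GRCm38.p6). A gene was its probe set with the highest mean, and genes at or above the median mean (6.83) were tested in limma 3.58.1 (R 4.3.3) over all 9 arrays with an intensity trend, Benjamini-Hochberg adjustment over the 9097 genes and a threshold of 0.05. SE values are the model's. Because the values were logarithms, the planned pseudocount of 16 was dropped.

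On simulated data for M with WT (20 simulations of 9097 genes, 200 changed) the test recovered 87.1% of genes changed by 1 (log2) and 98.8% of those changed by 2, with 10.35 false calls on average. The simulated noise was independent between genes, with no scaling error between arrays, and in the data 6259 genes were called. These rates therefore hold for the simulated setting only. Replicate numbers are shared between groups, but deviations of same-numbered arrays correlated by -0.098 to 0.084, so they were not taken as pairs. The members and gene lists were chosen with earlier results of these data known. Genes named beside the members are, from each companion list, up to 4 called genes with the largest change in M with WT and, for likeness, the 5 nearest profiles. Canx, Srgn, Irf8, Gfi1b, Myb, Kit, Csf1r, Cebpa, Spi1, Gzme, Ltf, Itgb2l and Cxcr2 fall outside this rule, and most were picked with their values known. Promoter sequences are RefSeq's, and all 6 measured members matched. Alternatives were pseudocounts of 1 and 64, no filter, a stricter filter, quantile, median and spike-in scaling, other variance models, the mean of probe sets, only the groups compared, the replicate block and leaving out each array.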

Additional observations from a re-analysis of the deposited data

Results flagged for a closer look

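For 2 members, Mpo and Ctsg, every E array lay below the WT arrays and every M array above them, so that the leukemic groups stood on opposite sides of WT. Of all genes tested, 14.7% had all E arrays below WT and 26.5% had all M arrays above it. The share with both was not computed. The M minus E difference was 1.68 for Mpo and 2.85 for Ctsg. It is a description here, since the low E signals of both were known when the genes were chosen. Both differences from WT share the WT arrays. With spike-in scaling the M minus E differences were 0.63 and 1.79.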

How the results depend on the processing

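In M with WT and M with E, the direction of all 6 members held in every alternative run, and 6 of 6 kept their call except with spike-in scaling, where Mpo and Prtn3 in M with WT and Prtn3 in M with E did not pass, as given above, and with the stricter filter, which left 4 members. The M with E calls are a description, since E with WT results were known when the genes were chosen. The same goes for Gfi1, which entered the test only through its M signals. Their hold across the alternatives is no support. The members' median in M with WT was 2.33 with a pseudocount of 64, 1.79 with the stricter filter, 1.97 centred on the median and 1.61 with spike-in scaling. In M with E it was 2.33, 2.26, 1.99 and 1.71 under the same settings. Leaving out single arrays gave medians of 2.49 to 2.67 and 2.67 to 2.82, with 6 members called each time, and -0.32 to -0.10 in E with WT, with 1 to 2 called. In E with WT, 1 member was called with a pseudocount of 64, no filter, quantile normalization, median centring, no trend, the mean of probe sets or the replicate block, and 0 with spike-in scaling. The count of all genes called in E with WT (192) was 85 with the stricter filter, 118 after quantile normalization, 848 with array weights, 102 with the mean of probe sets, 756 with only the groups compared and 98 to 836 without single arrays, the highest without M replicate 3. It was 3466 in M with WT (6259) and 3485 in M with E (6368) with the stricter filter, which tested 4549 genes, and 5721 to 6334 and 5782 to 6462 without single arrays. With the replicate block, in which numbers pair nothing here, 153, 6100 and 6248 genes were called, in the order E against WT, M against WT and M against E. The E minus WT difference of Gfi1 had either sign (-0.60 to 0.15) across these alternatives. Signals near the median of all probe sets, as for Gfi1 in WT and E, limit what fold can be read. With 3 arrays a group, labelled biological replicates, p-values set a difference against the spread between arrays. In the main fit that spread is pooled over the 3 groups and drawn towards an intensity trend over all genes tested.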
